A study of Sebastes schlegelii with 6 samples.

Results

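The liver of Korean rockfish (Sebastes schlegelii), a marine bony fish, was examined for the transcripts of glycolysis and glycogen metabolism after 72 days of starvation or of feeding. The genes described are all those whose symbol in the deposited count table, ignoring case and with a paralog letter allowed, was 1 of 41 names of enzymes and glucose transporters. This gave 55 genes of the 19303 in the table. Of the 41 names 36 were found, 17 of them with more than 1 copy and none with more than 3, while no symbol matched aldoa, eno3, pfkfb1, pklr or slc2a2, and those are not analysed here. Copies of a name are numbered by their total count, and the number has no other meaning. Copies of a name may share reads where their sequences are nearly the same, so values of single copies are less certain than their sum.

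The series compared 3 liver libraries of fish starved for 72 days with 3 liver libraries of fish fed for 72 days. All 6 were made with a strand-specific mRNA kit and sequenced as read pairs, and no strain, age, sex or water temperature is given in the sources used here. Whether each library stands for a different fish is not stated in the labels, and the p-values thus cover only the spread among these libraries, which may be technical. Because whole tissue was sequenced, fewer cells of a type and less RNA per cell cannot be told apart in any of these values.

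Glycolysis splits glucose into pyruvate. Hexokinase, phosphofructokinase-1 and pyruvate kinase run in practice in that direction only, while the steps between them also run backwards, when liver makes glucose from smaller molecules. Liver stores glucose as glycogen: glucose 1-phosphate is activated to UDP-glucose, and glycogen synthase adds it to chains that start on glycogenin and are forked by the branching enzyme. Glycogen phosphorylase, switched on by phosphorylase kinase, takes the chains apart again, and a separate enzyme, acid alpha-glucosidase, digests glycogen in lysosomes.

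Total counts per library ranged from 13469708 to 14716282 in starved liver and from 11623356 to 13029074 in fed liver. Fed replicate 1 stood apart: its log2(CPM + 1) values correlated across genes at Pearson r = 0.906 and 0.896 with the other fed libraries, against 0.964 between those 2, and 41.7% of its uniquely mapped reads were spliced, against 50.8% to 53.3% in the starved and 50.7% and 51.1% in the other fed libraries. It was the highest of the 6 libraries for 12 of the 43 tested genes of the pathway (all tested genes: 31.6%) and the lowest for 12 (all tested genes: 32.9%). Starved replicate 3 was the highest for 14 of the 43 (all tested genes: 11.7%). For the 43 genes, calls and signs that change without fed replicate 1 are given both ways. The summed level of the hepatocyte list (12 of 16 names found, 33 genes) overlapped between groups, from 176535 to 215346 FPKM in starved and from 156535 to 224097 FPKM in fed liver. Summed levels of the endothelium and stellate list (9 of 12 names found, 15 genes) were 77.4, 96.7 and 64.1 FPKM in starved and 126, 169 and 117 FPKM in fed liver, without overlap. The matrix genes COL1A1, col1a2 and DCN carried that gap, with 18.8, 27.8 and 14.7 FPKM in starved and 83.3, 104 and 72.8 FPKM in fed liver, while the other genes of the list overlapped, with 58.6, 68.9 and 49.4 FPKM in starved and 42.8, 65.4 and 44.4 FPKM in fed liver. Sums of the bile duct list (6 of 8 names, 17 genes) were 848, 1315 and 1167 FPKM in starved liver. In fed liver they were 1752, 1709.9 and 1728 FPKM, also without overlap. Most of each sum came from KRT19 copy 1 (388, 693 and 561 FPKM in starved, 794, 827 and 847 FPKM in fed liver) and krt18 copy 1. Anxa4 and krt8 copy 1 were also lower without overlap. In contrast, krt18 copy 2 was higher in starved liver, at 48.2, 48.6 and 41.7 FPKM against 35.8, 29.2 and 26.6 FPKM. Both sox9-b genes overlapped. Sums of the other lists overlapped: leukocytes had 173 to 417 FPKM in starved and 117 to 262 FPKM in fed liver, red blood cells 47.0 to 105 FPKM in starved and 41.9 to 51.6 FPKM in fed liver, and exocrine pancreas 13.2 to 303 FPKM in starved liver, highest in replicate 3, and 4.42 to 77.8 FPKM in fed liver. Within the red blood cell list the genes differed in direction. RHAG had 41.9, 68.4 and 82.0 FPKM in starved and 13.3, 25.3 and 21.4 FPKM in fed liver (edgeR adjusted p = 0.0257). The gene slc4a1 copy 1 had 1.55, 1.13 and 5.15 FPKM in starved and 13.0, 8.85 and 12.9 FPKM in fed liver (edgeR adjusted p = 0.0885). Values of alas2 overlapped. No marker gene was at 0 in all libraries. The part of these cell types in the results below was not tested.

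Levels of a gene in different libraries are given as CPM, read counts scaled to a common library size by the trimmed mean of M values (TMM), and levels of different genes are compared as FPKM, which divides by coding length. FPKM is the authors' unit and carries no TMM scaling. Differences are log2 fold changes, starved over fed, with a standard error derived from the F statistic of edgeR's quasi-likelihood test, and p-values are Benjamini-Hochberg adjusted over the 13338 genes tested.

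The members ranged from gapdh copy 1, the 20th most abundant gene of the table at a mean of 5705 FPKM over the 6 libraries, to copies with next to no reads. UGP2 copy 1 (1385 FPKM), ENO1 (461), tpi1b (414) and Pgk1 (271) followed. Of the 55 genes, 43 passed the filter on low counts and 12 did not, 5 of the 12 with no more than 5 counts in all libraries together. Together the 55 genes took 1.39%, 1.30% and 1.78% of all counts in starved and 0.661%, 0.894% and 0.648% in fed liver, so the groups did not overlap. That gap was carried by gapdh copy 1 and UGP2 copy 1: without these the other 53 genes took 0.316, 0.310 and 0.337 percent in starved and 0.302, 0.473 and 0.305 percent in fed liver, with overlap.

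Which of these transcripts differed after 72 days without food was asked by setting starved against fed liver. The 6 genes with the lowest adjusted p were gapdh copy 1, UGP2 copy 1, GYS2 and PHKA1, which were higher in starved liver, and ENO1 and Pygl, which were lower. Their differences lay between 1.77-fold and 3.83-fold, and none of the 6 passed the adjusted threshold. By edgeR's quasi-likelihood test 0 of the 43 tested genes had an adjusted p under 0.05, against 5.16% of all tested genes in either direction. The lowest adjusted p was 0.0558. At an unadjusted p under 0.05, 8 of the 43 were higher in starved liver (all tested genes: 9.60%) and 5 were lower (all tested genes: 12.3%). The CPM values of the groups did not overlap for 11 genes that were higher (all tested genes: 15.6%) and 6 that were lower (15.5%). The median log2 fold change of the 43 was 0.12, and that of all tested genes -0.03.

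Of the 22 tested genes of glycolysis, 8 were above 0 and 14 below, with a median log2 fold change of -0.23. Of the 11 tested genes of glycogen breakdown, 5 were above 0 and 6 below, with a median of -0.40.

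Other tests called more. DESeq2's Wald test passed 5 of the 43 as higher (5.26% of all tested genes) and 3 as lower (7.14%). The 5 were gapdh copy 1, UGP2 copy 1, GYS2, GYS1 and PHKA1, and the 3 were ENO1, Pygl and PGM1 copy 2. Without fed replicate 1, edgeR passed 4 of 45 as higher, namely gapdh copy 1, UGP2 copy 1, GYS2 and GYS1 (5.81% of the 13837 genes then tested), and 1, Pygl, as lower (6.50%). In the authors' deposited table, 48 of the 55 genes had a q-value, of which 4 were higher at a q under 0.05, against 3.95% of its genes, and 3 were lower, against 5.54%. Those of the authors' deposited table were the same genes as DESeq2 passed here, apart from GYS1 (q = 0.0583).

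**Figure D1:**
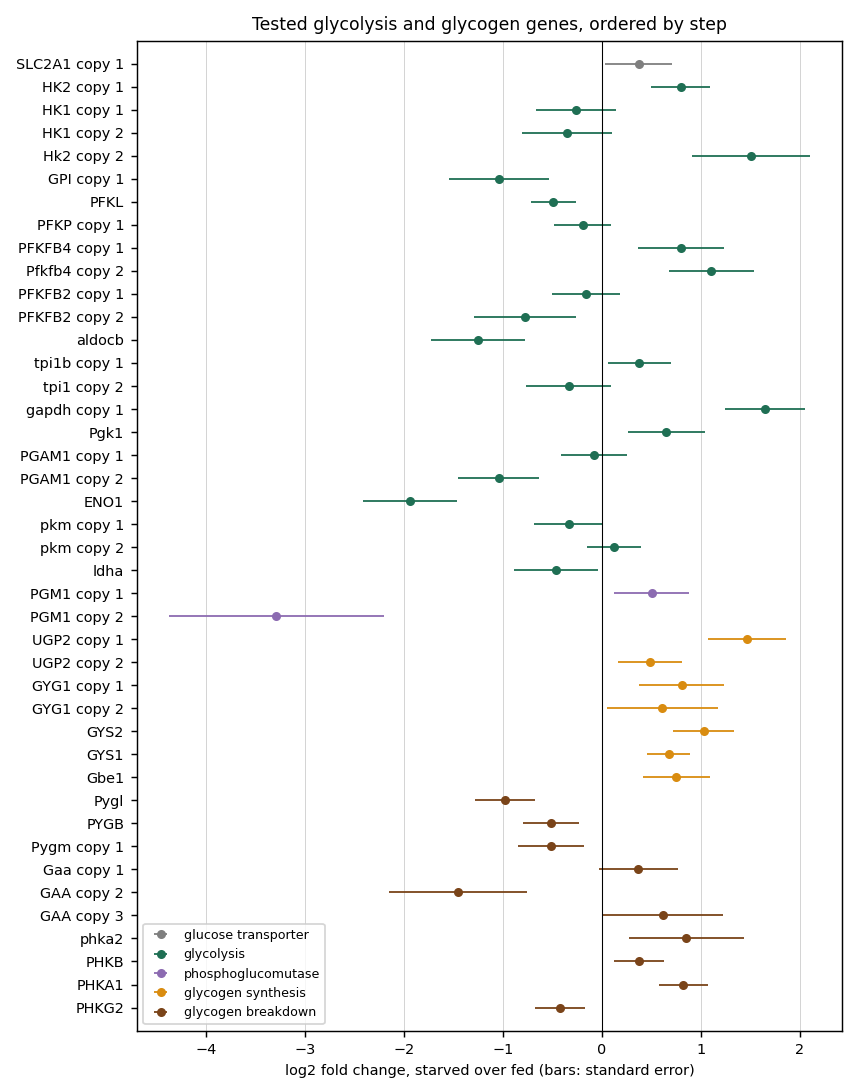
Log2 fold change, starved over fed, of tested genes from top to bottom in the order of the steps, with bars for the standard error and colours for the role. All 7 listed genes of glycogen synthesis lie above 0, and all 3 tested glycogen phosphorylase genes lie below 0. The highest value is that of gapdh copy 1 (1.65), and the lowest that of PGM1 copy 2 (-3.29). GYG2, another glycogenin outside the listed names, is not drawn and was lower in starved liver.

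Glucose enters and leaves cells through SLC2A transporters. SLC2A1 copy 1, named for the widely expressed GLUT1, was the most abundant of the 4 transporter genes, with 5.95, 9.55 and 10.1 CPM in starved livers, against 5.57, 5.14 and 9.08 CPM in fed livers. The groups overlapped (log2 fold change 0.37 ± 0.34, SE; edgeR adjusted p = 0.564). The other 3 transporter genes, 2 named SLC2A3 and a second Slc2a1, had at most 1.14 CPM in any library and were not tested.

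Hexokinases trap glucose as glucose 6-phosphate, and those named HK1 and HK2 are the forms with high affinity for glucose. HK2 copy 1, the most abundant of the 5 genes, had 10.9, 12.8 and 12.8 CPM in starved livers, against 4.64, 8.94 and 7.31 CPM in fed livers. All starved libraries lay above all fed ones (log2 fold change 0.80 ± 0.30, SE; edgeR adjusted p = 0.164). Hk2 copy 2 was rarer, with 1.20, 1.12 and 0.955 CPM in starved livers, against 0.116, 0.634 and 0.308 CPM in fed livers, again without overlap (log2 fold change 1.51 ± 0.60, SE; edgeR adjusted p = 0.187). The fed values of Hk2 copy 2 rest on few reads, as do its fed shares below. The 2 tested HK1 genes overlapped between groups, with log2 fold changes of -0.26 and -0.35. The share of the 2 HK2 genes in the summed hexokinase FPKM was higher in starved liver: HK2 copy 1 made up 62.6% to 71.1% in starved and 47.8% to 64.1% in fed libraries, and Hk2 copy 2 9.34% to 13.1% in starved and 2.26% to 8.59% in fed libraries (with CPM in place of FPKM 5.18% to 7.42% in starved and 1.22% to 4.76% in fed libraries).

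Glucose-6-phosphate isomerase turns glucose 6-phosphate into fructose 6-phosphate and back. GPI copy 1 had 88.7, 58.8 and 84.2 CPM in starved livers, against 268, 149 and 59.0 CPM in fed livers. Fed replicates 1 and 2 stood above the starved libraries, and fed replicate 3 lay among them (log2 fold change -1.04 ± 0.50, SE; edgeR adjusted p = 0.274). Without fed replicate 1 its log2 fold change was -0.43. GPI copy 2 had 9 counts or fewer over all libraries.

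Phosphofructokinase-1 commits sugar to glycolysis. PFKL, the liver type, had 17.2, 15.2 and 15.3 CPM in starved livers, against 26.2, 19.4 and 21.4 CPM in fed livers. It was lower in each starved than in each fed library (log2 fold change -0.49 ± 0.23, SE; edgeR adjusted p = 0.254). PFKL made up 74.3% to 76.5% of the summed FPKM of this step in starved and 76.7% to 81.5% in fed libraries, so the liver type predominated in both, and PFKP copy 1, the platelet type, supplied most of the rest. PFKM, the muscle type, had at most 0.696 CPM, and a second PFKP at most 0.348 CPM. Skeletal muscle markers were near 0 as well, with 10 of 13 matched genes under 10 counts in all libraries together.

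The bifunctional enzymes PFKFB1 to PFKFB4 make and remove fructose 2,6-bisphosphate, which activates phosphofructokinase-1 and inhibits its gluconeogenic counterpart. PFKFB4 copy 1 was the most abundant of the 5 genes with 27.1, 17.3 and 24.5 CPM in starved livers, against 9.51, 7.16 and 22.9 CPM in fed livers. Fed replicate 3 lay within the starved range, and the other fed libraries below it (log2 fold change 0.80 ± 0.43, SE; edgeR adjusted p = 0.324). Pfkfb4 copy 2 had 14.2, 9.03 and 12.7 CPM in starved livers, against 2.67, 8.94 and 4.85 CPM in fed livers, without overlap but by a small margin (log2 fold change 1.11 ± 0.43, SE; edgeR adjusted p = 0.180). Both PFKFB2 genes overlapped between groups, with log2 fold changes of -0.16 (0.05 without fed replicate 1) for copy 1 and -0.78 for copy 2, and PFKFB3 was not tested, at no more than 1.08 CPM.

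Aldolase cuts fructose 1,6-bisphosphate into trioses. Of the listed aldolase names aldocb, a form named for brain, was found, and it was rare, with 1.20, 1.25 and 1.76 CPM in starved livers, against 5.10, 1.71 and 3.39 CPM in fed livers. The fed values spread from just below the highest starved one upwards (log2 fold change -1.25 ± 0.47, SE; edgeR adjusted p = 0.167). Triose-phosphate isomerase interconverts the trioses, and tpi1b gave at least 99.1% of its FPKM in every library. It had 319, 295 and 439 CPM in starved livers, against 339, 247 and 224 CPM in fed livers, with overlap (log2 fold change 0.38 ± 0.32, SE; edgeR adjusted p = 0.527). The other gene, tpi1, had at most 2.16 CPM.

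Glyceraldehyde-3-phosphate dehydrogenase, which oxidises the triose and is widely used as a reference gene in expression work, had the highest log2 fold change of the 43 genes. The gene gapdh copy 1 had 8217, 6291 and 11068 CPM in starved livers, against 3635, 2522 and 1978 CPM in fed livers. Every starved library was above every fed one, by 3.14-fold between the groups (log2 fold change 1.65 ± 0.40, SE; edgeR adjusted p = 0.0558, and from 0.000140 to 0.218 over the alternatives). Without fed replicate 1 it was 3.78-fold higher and passed (edgeR adjusted p = 0.0159). The authors' deposited table gave a fold of 3.16 (q = 0.000125). The second gapdh gene had 3 counts in all.

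Phosphoglycerate kinase follows and makes the first ATP of the pathway. Pgk1 had 427, 373 and 399 CPM in starved livers, against 346, 284 and 133 CPM in fed livers. The starved libraries were close together and the fed ones spread widely below them (log2 fold change 0.65 ± 0.39, SE; edgeR adjusted p = 0.366). Phosphoglycerate mutase, the next step, was carried by PGAM1 copy 1, with 73.7, 73.2 and 82.5 CPM in starved livers, against 120.3, 67.6 and 55.0 CPM in fed livers. Its groups overlapped (log2 fold change -0.08 ± 0.33, SE; edgeR adjusted p = 0.910), and without fed replicate 1 the log2 fold change was 0.32. PGAM1 copy 2 had 9.07, 8.10 and 12.6 CPM in starved livers, against 34.4, 12.7 and 14.5 CPM in fed livers, and every fed library was higher (log2 fold change -1.04 ± 0.41, SE; edgeR adjusted p = 0.187). Its share of the summed FPKM of the step was 7.54% to 10.2% in starved and 12.2% to 17.5% in fed libraries. Pgam2, the muscle form, had no more than 0.264 CPM.

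Enolase, which makes phosphoenolpyruvate, stood the other way from gapdh. ENO1 had 142, 177 and 416 CPM in starved livers, against 910.2, 1181 and 724 CPM in fed livers. The highest starved library, replicate 3, was still below the lowest fed one, and ENO1 was 3.83-fold lower in starved liver (log2 fold change -1.94 ± 0.47, SE; edgeR adjusted p = 0.0564, and from 0.000624 to 0.226 over the alternatives). It passed in 6 of the alternatives, among them limma-voom and the fit with no filter on low counts. Without fed replicate 1 its log2 fold change was -1.96 (edgeR adjusted p = 0.0594). The authors' deposited table put it 3.80-fold lower (q = 0.000660).

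Pyruvate kinase and lactate dehydrogenase end the pathway. The gene pkm copy 1, named for the muscle and general form, supplied 91.8% to 94.6% of the pyruvate kinase FPKM in starved and 91.6% to 96.2% in fed libraries. It had 141, 164 and 149 CPM in starved livers, against 286, 149 and 138 CPM in fed livers. Only fed replicate 1 stood apart, and the sign of the difference turned without it, at log2 fold changes of -0.34 with and 0.07 without that library (edgeR adjusted p = 0.607 with it). The gene pkm copy 2 overlapped between groups too (log2 fold change 0.12 ± 0.27, SE; edgeR adjusted p = 0.826). The lactate dehydrogenase gene ldha, of the muscle form A, was low, with 6.23, 6.39 and 13.4 CPM in starved livers, against 17.4, 11.5 and 7.16 CPM in fed livers. Its groups overlapped (log2 fold change -0.46 ± 0.43, SE; edgeR adjusted p = 0.567), and ldhb had 1 count in all.

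**Figure D2:**
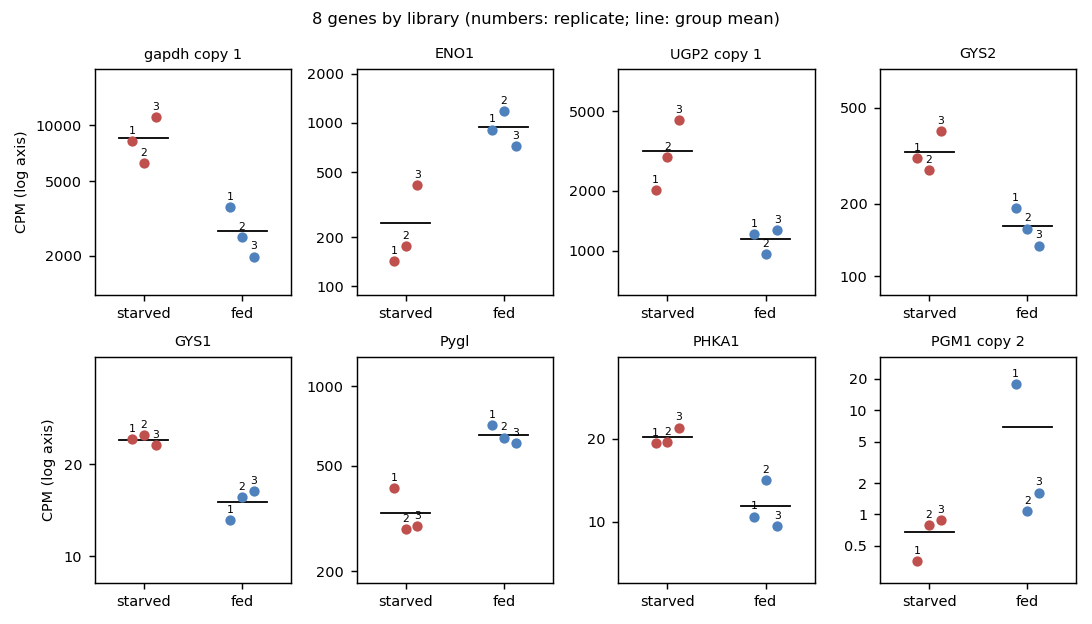
CPM on log axes in each of the 3 starved (left) and 3 fed libraries (right) for the 8 genes that passed in at least 1 alternative; numbers are replicates and lines group means. The groups do not overlap in any of the 8, but these genes were picked by tests on the same libraries. PGM1 copy 2 is high in fed replicate 1 (17.9 CPM) only.

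Phosphoglucomutase links glycolysis to glycogen by moving the phosphate of glucose between positions. PGM1 copy 1 had 312, 329 and 441 CPM in starved livers, against 365, 244 and 155 CPM in fed livers, with overlap (log2 fold change 0.50 ± 0.38, SE; edgeR adjusted p = 0.479). PGM1 copy 2 had the lowest log2 fold change of the 43 genes, with 0.354, 0.791 and 0.881 CPM in starved livers, against 17.9, 1.08 and 1.62 CPM in fed livers. That value rested on fed replicate 1, since the other fed libraries lay just above the starved ones (log2 fold change -3.29 ± 1.09, SE; edgeR adjusted p = 0.122, and -0.98 on the log2 scale without that library, edgeR adjusted p = 0.310; from 0.00665 to 0.371 over the alternatives). It supplied 4.25% of the phosphoglucomutase FPKM in fed replicate 1 and no more than 0.940% in any other library.

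All 7 listed genes of glycogen synthesis passed the filter on low counts, while 0 of them passed with edgeR. All 7 had log2 fold changes above 0, from 0.49 to 1.46 with a median of 0.75. Among all tested genes, 6413 of 13338 were above 0. The shared direction holds for the listed names only. GYG2, another glycogenin outside those names, was lower in every starved than in every fed library, as given below. UGP2 copy 1, the pyrophosphorylase that makes UDP-glucose, had 2014, 2933 and 4509 CPM in starved livers, against 1206, 961 and 1263 CPM in fed livers. It was 2.76-fold higher in starved liver, with the starved libraries spread more widely than the fed ones (log2 fold change 1.46 ± 0.39, SE; edgeR adjusted p = 0.0753, and from 0.00117 to 0.275 over the alternatives). It passed without fed replicate 1 (edgeR adjusted p = 0.0469), and in the authors' deposited table it was 2.78-fold higher (q = 0.00112). The second UGP2 gene, at no more than 1.19% of the step's FPKM, overlapped between groups.

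Glycogenin starts a new chain on itself. GYG1 copy 1 had 13.0, 13.0 and 26.3 CPM in starved livers, against 4.99, 12.2 and 12.5 CPM in fed livers, and starved replicate 3 stood above the other starved libraries, which were close to fed replicates 2 and 3 (log2 fold change 0.81 ± 0.43, SE; edgeR adjusted p = 0.312). GYG1 copy 2 overlapped between groups (log2 fold change 0.61 ± 0.56, SE; edgeR adjusted p = 0.563), and its sign turned without starved replicate 3 (log2 fold change -0.05).

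Glycogen synthase lengthens the chains. GYS2, the liver form, had 308, 275 and 401 CPM in starved livers, against 192, 157 and 134 CPM in fed livers. All starved libraries were higher, by 2.04-fold between the groups (log2 fold change 1.03 ± 0.30, SE; edgeR adjusted p = 0.0951, and from 0.00602 to 0.327 over the alternatives). GYS1, the muscle form, had 24.2, 24.8 and 23.1 CPM in starved livers, against 13.1, 15.6 and 16.3 CPM in fed livers, with little spread within a group (log2 fold change 0.68 ± 0.22, SE; edgeR adjusted p = 0.114, and from 0.0418 to 0.327 over the alternatives). Both passed without fed replicate 1 (edgeR adjusted p = 0.0264 and 0.0465). GYS2 made up 91.5% to 94.4% of the synthase FPKM in starved and 88.9% to 93.5% in fed libraries, so the liver form predominated in both groups. The branching enzyme Gbe1 had 381, 431 and 494 CPM in starved livers, against 192, 358 and 226 CPM in fed livers, with fed replicate 2 just under the lowest starved library (log2 fold change 0.75 ± 0.34, SE; edgeR adjusted p = 0.243).

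Glycogen phosphorylase releases glucose 1-phosphate from the chains. Pygl, the liver form, had 413, 289 and 296 CPM in starved livers, against 716, 639 and 612 CPM in fed livers. Every starved library was lower than every fed one, by 1.97-fold between the groups (log2 fold change -0.98 ± 0.30, SE; edgeR adjusted p = 0.106, and from 0.00393 to 0.360 over the alternatives). It passed without fed replicate 1 (edgeR adjusted p = 0.0459), and the authors' deposited table put it 1.96-fold lower (q = 0.00411). PYGB, the brain form, was also lower in each starved library, with 9.14, 5.53 and 8.74 CPM in starved livers, against 9.74, 11.6 and 12.1 CPM in fed livers (log2 fold change -0.52 ± 0.28, SE; edgeR adjusted p = 0.325). Pygm copy 1, the muscle form, overlapped between groups (log2 fold change -0.52), a second Pygm had 2 counts in all, and Pygl made up at least 95.7% of the phosphorylase FPKM in every library.

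Acid alpha-glucosidase had 3 genes, of which Gaa copy 1 was the most abundant with 77.3, 79.1 and 73.4 CPM in starved livers, against 26.2, 71.2 and 80.7 CPM in fed livers. Only fed replicate 1 was far below the rest (log2 fold change 0.37 ± 0.40, SE; edgeR adjusted p = 0.627). GAA copy 2 had 3.97, 1.25 and 1.25 CPM in starved livers, against 8.12, 8.18 and 1.54 CPM in fed livers, so the libraries of both groups were divided (log2 fold change -1.46 ± 0.69, SE; edgeR adjusted p = 0.268), and GAA copy 3 had a log2 fold change of 0.62.

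Phosphorylase kinase is built of 2 kinds of regulatory subunit, alpha and beta, with calmodulin and the catalytic gamma subunit. PHKG2, the liver and testis form of gamma, had 9.84, 12.8 and 8.52 CPM in starved livers, against 12.1, 14.5 and 15.2 CPM in fed livers, with overlap (log2 fold change -0.42 ± 0.26, SE; edgeR adjusted p = 0.373). PHKA1, the muscle form of alpha, had 19.3, 19.4 and 21.96 CPM in starved livers, against 10.4, 14.2 and 9.62 CPM in fed livers, without overlap (log2 fold change 0.82 ± 0.25, SE; edgeR adjusted p = 0.0968, and from 0.0397 to 0.313 over the alternatives). The liver form phka2 had 19.97, 36.4 and 19.6 CPM in starved livers, against 3.60, 14.1 and 24.2 CPM in fed livers, with fed replicate 3 inside the starved range (log2 fold change 0.85 ± 0.58, SE; edgeR adjusted p = 0.431). PHKB, the beta subunit, had a log2 fold change of 0.38, with overlap. PHKG2 made up 30.1% to 35.5% of the summed kinase FPKM in starved and 48.2% to 60.0% in fed libraries, and with CPM in place of FPKM 11.9% to 14.7% in starved and 22.6% to 31.9% in fed libraries.

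**Figure D3:**
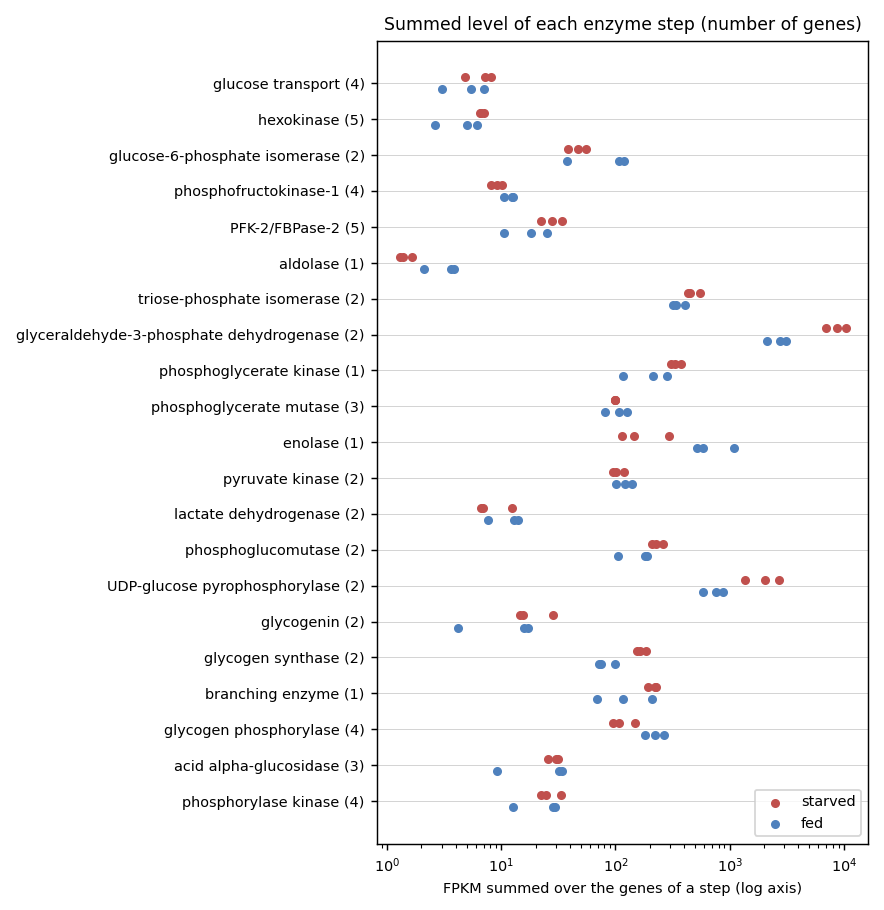
FPKM summed over those of the 55 genes that belong to a step, on a log axis, for each starved (upper, red) and fed library (lower, blue). The number of genes stands in brackets, and genes without a symbol are left out. The GAPDH, UDP-glucose pyrophosphorylase and glycogen synthase sums of the starved libraries lie above all fed ones, and the enolase and glycogen phosphorylase sums below.

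Summed over the copies among the 55 genes, the groups did not overlap in FPKM for 11 of 22 steps. For single tested genes, in CPM, the shares without overlap were 15.6% higher and 15.5% lower, but a summed step is another unit. Genes without a symbol are left out of the sums. A PFKFB-type gene without a symbol had 94.9, 57.5 and 73.6 FPKM in starved livers. That was above the 34.1, 22.4 and 27.9 FPKM summed for its step. GAPDH reached 8807, 6932 and 10473 FPKM in starved livers, against 2757, 3122 and 2139 FPKM in fed livers, a ratio of 3.27. UDP-glucose pyrophosphorylase had 1376, 2054 and 2707 FPKM in starved livers, against 582, 762 and 869 FPKM in fed livers, and glycogen synthase 165, 154 and 186 FPKM in starved livers, against 72.1, 99.4 and 75.4 FPKM in fed livers, ratios of 2.77 and 2.05. Hexokinase, triose-phosphate isomerase, phosphoglycerate kinase and phosphoglucomutase were also higher without overlap, at ratios from 1.34 to 1.64. Enolase was lower, with 115, 146 and 296 FPKM in starved livers, against 519.8, 1100.5 and 589 FPKM in fed livers, as were glycogen phosphorylase, with 149, 108 and 95.2 FPKM in starved livers, against 181, 265 and 223 FPKM in fed livers, phosphofructokinase-1 and the 1 aldolase gene. Of these 11, 3 (triose-phosphate isomerase, phosphoglucomutase and aldolase) overlapped when the same sums were taken in TMM-scaled CPM. In that unit the branching enzyme and phosphorylase kinase were also apart. For phosphorylase kinase the margin was small, at 67.07 CPM in the lowest starved and 66.96 CPM in the highest fed library. Its sum adds different subunits, of which PHKG2 had a log2 fold change below 0 and the others above 0. Phosphoglycerate mutase and pyruvate kinase had sums that differed by little, at ratios of 0.941 and 0.872. An aldolase A gene without a symbol, outside the sums, had 14.2, 15.9 and 11.3 FPKM in starved and 12.7, 16.7 and 19.1 FPKM in fed livers. Those values overlapped between groups and lay above aldocb in every library. The sums are a description and were not tested.

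Ratios within a library do not depend on scaling between libraries. The pairs were chosen after their values were seen. GYS2 stood to Pygl, in FPKM, at 1.06, 1.35 and 1.93 in starved livers, against 0.381, 0.350 and 0.311 in fed livers. In every starved library the synthase transcript was thus above that of the phosphorylase per length, and in every fed library below it. The ratio of gapdh copy 1 to ENO1 was 76.7, 47.3 and 35.3 in starved livers, against 5.30, 2.84 and 3.63 in fed livers, and that of gapdh copy 1 to Pgk1, the next step of the pathway, was 23.7, 20.8 and 34.1 in starved livers, against 12.9, 10.9 and 18.3 in fed livers. The groups did not overlap in any of the 3 ratios. For GYS2 to Pygl and gapdh copy 1 to ENO1 this was fixed in advance and adds no support. The single genes of those pairs already lay apart between the groups, in opposite directions. A ratio alone shows that the 2 transcripts of a pair differed unequally and not which of them did.

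**Figure D4:**
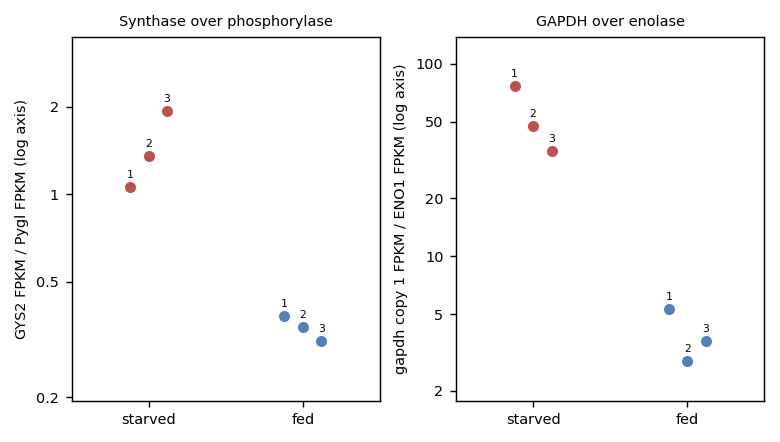
Ratio of FPKM within each library, on log axes, for GYS2 over Pygl (left panel) and gapdh copy 1 over ENO1 (right panel), starved libraries left of fed ones, numbered by replicate. Starved libraries lie above 1 and fed ones below 1 for GYS2 over Pygl, and at 35.3 or more against 5.30 or less for gapdh over ENO1.

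Neighbouring genes were taken from 3 further lists. Of 23 tested genes of other sugar enzymes and transporters (34 matched), 1 fell and 0 rose, and the median log2 fold change was -0.35. Per direction, edgeR called 2.18% of all tested genes higher and 2.98% lower. PGM2, another phosphomutase, had a log2 fold change of -0.86, with an edgeR adjusted p of 0.0985. For SLC2A9 copy 2, named for a urate and sugar carrier, the value was -1.78, with an edgeR adjusted p of 0.0759. PGM2 and SLC2A9 copy 2 were picked by their p and did not pass with edgeR, and SLC2A9 copy 1 is not reported here.

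Of 17 tested genes around the glycogen particle (25 matched), 1 fell and 0 rose, with a median log2 fold change of -0.58. The 1 was GSK3B copy 1, a kinase that inactivates glycogen synthase, with 8.50, 6.72 and 8.30 CPM in starved livers, against 26.4, 37.7 and 57.8 CPM in fed livers (log2 fold change -2.37; edgeR adjusted p = 0.00964). Its call ended without starved replicate 1, 2 or 3 (edgeR adjusted p from 0.0577 to 0.0632), and for the other 2 genes of that name, neither of which passed, the log2 fold change was -0.46 for copy 2 and 0.56 for copy 3. GYG2, a second glycogenin, had 15.7, 25.2 and 23.3 CPM in starved livers, against 60.8, 32.9 and 55.3 CPM in fed livers, the opposite direction to GYG1, and did not pass (edgeR adjusted p = 0.0684). Ppp1r3g and ppp1r3b copy 2 belong to a family that brings protein phosphatase to glycogen. The log2 fold change of Ppp1r3g was -1.30 (edgeR adjusted p = 0.132), and that of ppp1r3b copy 2 was -3.03 (edgeR adjusted p = 0.148). Neither passed with edgeR. They were picked by their p, and ppp1r3b copy 1 is not reported here, so the values do not stand for the family.

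Of 13 tested sugar-responsive and hypoxia factors (20 matched), 0 passed with edgeR, against 5.16% of all tested genes. At an unadjusted p under 0.05, 1 was higher (all tested genes: 9.60%) and 2 were lower (all tested genes: 12.3%). DESeq2 passed 1 as lower (7.14% of all tested genes), Egln1, an oxygen-sensing hydroxylase. Egln1 had 26.8, 29.1 and 24.5 CPM in starved livers, against 52.5, 43.8 and 40.9 CPM in fed livers (edgeR adjusted p = 0.0951). The hypoxia factor hif1a, a known activator of glycolytic genes in mammals, had 145, 177 and 177 CPM in starved livers, against 61.0, 87.4 and 126 CPM in fed livers (edgeR adjusted p = 0.168). The inhibitor of that factor, hif1an, had a log2 fold change of -1.15 (edgeR adjusted p = 0.105). The median log2 fold change of the 13 was -0.09.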

How the data were processed

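Korean rockfish liver RNA was sequenced as 6 mRNA libraries. The submitters' processing notes name Trimmomatic, HISAT2, Cufflinks and HTSeq without versions; the genome build, the annotation and the strand setting of the counting are not given in the sources used here. The deposited files hold raw read counts per gene, FPKM values, and a table of the authors with fold changes (a linear ratio) and q-values; per the file headers these are the authors' own, and the deposited read numbers per library include spliced reads. The authors' fold changes had the same sign as the ratio of group mean FPKM for 96.8% of genes. The gene length implied by the deposited counts and FPKM was a multiple of 3 throughout, and is called coding length here. Of the genes in the annotation, 1662 carry no symbol and could not be matched by name.

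The main test was edgeR's (version 4.0.16, under R 4.3.3) on the raw counts (filterByExpr, TMM, robust quasi-likelihood F test, Benjamini-Hochberg adjustment over all tested genes, threshold 0.05), group only, with all 6 libraries. Alternatives were upper-quartile scaling, removal of the 20 most abundant genes, DESeq2 1.42.0, limma 3.58.1 voom with and without library quality weights, limma on log2(FPKM + 1) and log2(FPKM + 0.1), 2 other count filters (1 count in all; 1 CPM in 3 libraries and 50 counts), no robust dispersion, thresholds of 0.01 and 0.1, and each library left out. The fits were tested on simulated data. Replicates of a group differed by more than counting noise, so none was merged. Within-library shares and sums use FPKM and have no test; intervals cover counting error only. Values per library are given for genes that passed in any fit and for the most abundant copy of each step, and the 5 genes furthest in each direction are named; of other lists, called genes and up to 3 more by p. The members and lists were chosen with earlier results of these data known. Some genes of these lists are not reported here.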

Additional observations from a re-analysis of the deposited data

How the results depend on the processing

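Of 686 values of single pathway genes under an alternative, 649 kept their direction and their side of the threshold, 28 passed where the edgeR test with all libraries did not, and 9, in 5 genes, changed sign while passing in neither. The number of pathway genes higher in starved liver, 0 of 43, was 5 with DESeq2, 5 with voom quality weights, 3 on log2(FPKM + 1), 1 on log2(FPKM + 0.1), 4 at an adjusted p under 0.10 and 0 to 4 with 1 library left out, 4 being the value without fed replicate 1. The number lower, 0, was 3 with DESeq2, 2 with quality weights, 1 with voom, with no count filter, on each FPKM scale and at 0.10, and 0 to 1 with 1 library left out. The median log2 fold change of tested members, here genes of the pathway, was 0.0195 without the 20 most abundant genes, 0.219 with no filter, 0.0177 with the stricter filter and -0.0533 to 0.156 with 1 library left out. For the glycogen particle list the number lower, 1, was 3 with DESeq2, 2 with quality weights, 2 at 0.10 and 0 to 2 with 1 library left out. For the other sugar enzymes and transporters, the number higher, 0, was 1 with DESeq2, quality weights, both FPKM scales and 0.10, and 0 to 1 with 1 library left out. Their number lower, 1, was 3 with DESeq2, 5 with quality weights, 3 at 0.10 and 1 to 3 with 1 library left out. For sugar-responsive and hypoxia factors the number lower, 0, was 1 with DESeq2, 2 with quality weights, 1 at 0.10 and 0 to 2 with 1 library left out. Of all tested genes, the main test called 2.18% higher and 2.98% lower, DESeq2 5.26% and 7.14%, and edgeR without fed replicate 1 5.81% and 6.50%. For the other alternatives the share over all tested genes is not given. Their numbers thus cannot be set against it and are no result about the listed genes. The cause of these differences was not tested. Without the 20 most abundant genes gapdh copy 1 has no value. Of 350 copy shares under an alternative, 3 (Hk2 copy 2, PHKB and PHKG2) moved beyond the replicate spread, with CPM in place of FPKM. No paired analysis was possible because the sample codes of the 2 groups share no replicate number and only 1 letter (E), which would give a single pair. Low counts kept 12 of the 55 genes out of the test.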

Other observations

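Further genes of the same steps carry a product description but no symbol in the deposited annotation, and are outside the 55 genes. They were found by that description. A gene described as alpha-enolase had 37.5, 34.3 and 30.8 CPM in starved livers, against 64.8, 26.9 and 24.2 CPM in fed livers, with overlap between groups, and in FPKM it was below ENO1 in every library. Its log2 fold change was -0.17, and 0.42 without fed replicate 1 (edgeR adjusted p = 0.827 and 0.146). The first of 2 genes described as 6-phosphofructo-2-kinase/fructose-2,6-bisphosphatase had 128, 75.4 and 112 CPM in starved livers, against 36.5, 59.8 and 80.3 CPM in fed livers. Its groups overlapped, and it passed neither in the main test (log2 fold change 0.84, edgeR adjusted p = 0.218) nor in any alternative. In FPKM it was above every PFKFB gene that carries a symbol in all 6 libraries. The second had 6.59, 8.10 and 9.33 CPM in starved livers, against 4.64, 3.93 and 1.77 CPM in fed livers, with a log2 fold change of 1.22 (edgeR adjusted p = 0.114, and from 0.0266 to 0.326 over the alternatives). It passed with DESeq2 (adjusted p = 0.0426), with voom quality weights and without fed replicate 1 (edgeR adjusted p = 0.0438). Of 2 genes described as fructose-bisphosphate aldolase A, the first had 14.8, 16.1 and 13.3 CPM in starved livers, against 18.7, 15.03 and 19.7 CPM in fed livers and the second 2.05, 1.98 and 2.57 CPM in starved livers, against 1.28, 0.571 and 1.54 CPM in fed livers. The second aldolase gene did not overlap between groups, and neither aldolase gene passed with edgeR (adjusted p = 0.532 and 0.269).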
